A study of Mus musculus with 32 samples.

Results

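Kat6b was overexpressed from a transgene in the embryonic mouse forebrain, and the 8 libraries described here set dorsal telencephalon of Tg(Kat6b) embryos against that of wild-type embryos at embryonic day E12.5. They were 8 of the 32 libraries of the study and were chosen by their labels alone, as the 4 Kat6b transgenic and the 4 wild-type libraries of the FVBxBALB/c background at E12.5. The other 24 libraries hold Tg(Kat6b) and wild-type cortex at E15.5 on the same background, and Kat6b-/- and wild-type tissue of both ages on C57BL/6. Transgenic and wild-type embryos alike came from the mixed FVBxBALB/c background, because per the study's design the transgenic mice were not viable on an inbred one. All 8 libraries belong to sequencing batch 1, and their labels give the litter and the embryo number as not available. Nothing in the labels says which promoter drives the transgene, how many copies it has or whether 1 founder line was used, and littermates cannot be told from unrelated embryos. The p-values therefore measure only the spread between libraries. The main fit takes that spread from all 16 FVBxBALB/c libraries, those of E15.5 cortex included.

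Kat6b encodes a member of the MYST histone acetyltransferases, which works on histone H3 in a complex with a BRPF scaffold protein, an ING reader of histone methylation and the small subunit Meaf6. In the mouse it is known for its high level in the germinal layers of the forebrain and for a requirement in the growth of the cerebral cortex. At E12.5 the dorsal telencephalon consists mostly of dividing apical progenitors, with the first intermediate progenitors and deep-layer neurons. The comparison asks which genes differ in this tissue when Kat6b is overexpressed, which the study's design puts at about 4.5-fold.

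Of 15556 genes tested, 2 passed an adjusted p of 0.05 by edgeR's quasi-likelihood test, which is 0.0129% of them. Both were higher in Tg(Kat6b) tissue. They were Kat6b itself and Dupd1, the gene that lies next to it on chromosome 14. No gene was called lower, and 474 genes were lower at an unadjusted p under 0.05. In all, 1039 genes (6.68%) had an unadjusted p under 0.05, where 778 would be reached by chance if no gene differed. This excess was not seen when the 8 E12.5 libraries were fitted alone. That fit again called 2 genes, and 639 of 15574 genes tested had an unadjusted p under 0.05. The promoters of the called genes differ in their base composition. For each the 250 bases before a start of transcription listed by RefSeq on GRCm38.p6 (mm10) are given 5′ to 3′ on the strand of the gene. The Kat6b start is one of several and lies inside the outer bounds of the gene given below. Capitals mark every CG in the Kat6b promoter (chr14:21499520-21499769, plus strand) and a match to the MEF2 consensus, the site of a family of muscle regulators, in the Dupd1 promoter (chr14:21714577-21714826, minus strand).
Kat6b: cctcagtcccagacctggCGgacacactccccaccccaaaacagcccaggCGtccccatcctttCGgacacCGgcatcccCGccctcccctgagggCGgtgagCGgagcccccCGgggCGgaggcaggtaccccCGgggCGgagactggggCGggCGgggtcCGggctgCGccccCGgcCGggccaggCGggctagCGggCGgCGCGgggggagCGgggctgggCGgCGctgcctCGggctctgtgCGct
Dupd1: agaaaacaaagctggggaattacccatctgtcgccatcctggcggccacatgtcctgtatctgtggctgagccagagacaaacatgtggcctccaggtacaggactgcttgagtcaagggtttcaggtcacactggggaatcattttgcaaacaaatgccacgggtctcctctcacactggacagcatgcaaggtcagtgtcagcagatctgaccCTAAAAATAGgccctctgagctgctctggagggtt
The Kat6b promoter holds 27 CG pairs and the Dupd1 promoter 3, where the median of all 27025 promoters of this length is 6. The MEF2 consensus, which reads the same on both strands, was searched after the sequence had been seen, and 140 promoters (0.518%) hold it. CANNTG, the letters that muscle regulators of the MyoD family bind, occurs 4 times in the Dupd1 promoter and 0 times in that of Kat6b, and 66% of promoters hold it. TATAAA is in neither window, and 13% of promoters hold it. These matches are a description of letters, and no binding was measured.

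Kat6b transcript stood at 461, 559, 564 and 580 CPM, which are counts divided by the effective size of the library, in the 4 Tg(Kat6b) libraries, against 159, 192, 193 and 156 CPM in the 4 wild-type libraries. The groups did not overlap, and the lowest transgenic library stood above the highest wild-type library. The mean was 541 ± 53.9 CPM in Tg(Kat6b) tissue and 175 ± 20.2 CPM in wild type (SD, n = 4 each). The log2 fold change was 1.63 (SE 0.129), a 3.09-fold difference with a 95% interval of 2.56 to 3.73 (edgeR, adjusted p = 1.03e-05). The figure of about 4.5-fold stated in the study's design lies outside this interval, whose nearest bound is 3.73. Whether that figure rests on the same tissue, age and measure was not assessed. An exact two-sided permutation test of the CPM values gave p = 0.0286, the smallest that 4 libraries against 4 can give. The gene (Entrez 54169) lies on the plus strand of chromosome 14 from 21499216 to 21672478 on mm10. The counts take in the gene as a whole, so transcripts of the transgene and of the native gene cannot be told apart.

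Dupd1 (Entrez 435391) encodes a dual specificity phosphatase known from skeletal muscle, and it was all but absent from wild-type dorsal telencephalon. Its counts were 89, 78, 76 and 79 in the Tg(Kat6b) libraries, against 0, 0, 2 and 2 in the wild-type libraries. No wild-type library came near the transgenic ones. Scaled by library size, the transgenic libraries stood at 2.27, 2.48, 2.64 and 3.43 CPM. In all there were 322 counts in Tg(Kat6b) tissue and 4 in wild type, a ratio of 93.6 per effective library size with an exact Poisson interval of 36.5 to 343 that covers the counting error of the wild-type counts only. The fitted log2 fold change was 6.37 (SE 0.443, adjusted p = 1.17e-05 by edgeR), and a value fitted against so few counts depends on the prior count. The gene lies on the minus strand from 21676565 to 21714576, so that its 3′ end and that of Kat6b face each other over 4087 bases. The TruSeq kit does not mark strand, and reads from either strand of this region cannot be told apart in these counts. Per 100 counts of Kat6b there were 0.491, 0.445, 0.468 and 0.592 counts of Dupd1 in the transgenic libraries, against 0, 0, 0.0235 and 0.0251 in the wild-type libraries. Per length, the excess of Dupd1 in Tg(Kat6b) over wild type was 2.43 RPKM (CPM per kilobase of counted exons), 4.88% of the Kat6b excess of 49.9 RPKM. Dusp13, the phosphatase gene next beyond Dupd1, had 0 counts in all 4 transgenic libraries, against 3 counts in 1 wild-type library and 0 in the others. Of 22 skeletal muscle genes, 10 were tested and 0 were called, with a median log2 fold change of -0.21. The master regulators Myod1 and Myog had at most 2 and 3 counts in a transgenic library, against at most 9 and 4 in a wild-type library.

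**Figure D1:**
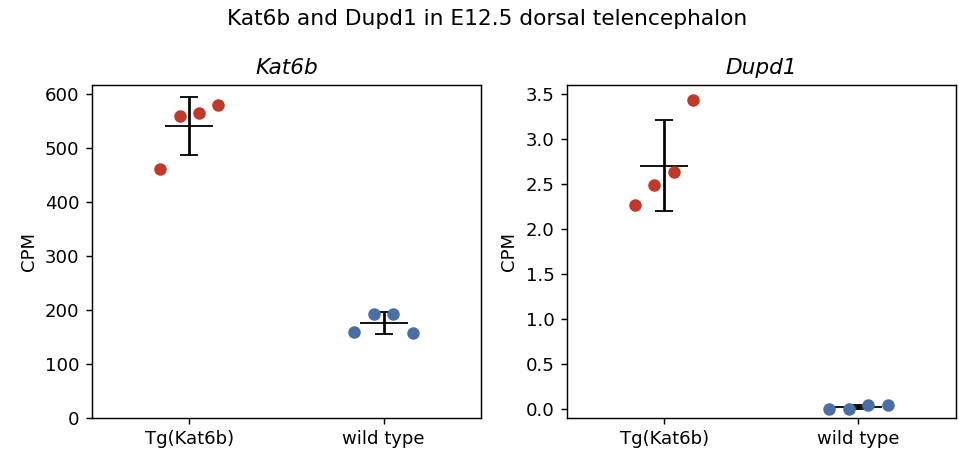
Scaled counts (CPM) of Kat6b (left) and Dupd1 (right) in the 4 Tg(Kat6b) and the 4 wild-type libraries at E12.5, with the mean and SD in black. Kat6b lies between 461 and 580 CPM in Tg(Kat6b) and between 156 and 193 CPM in wild type, and Dupd1 between 2.27 and 3.43 CPM in Tg(Kat6b), against at most 0.0453 CPM in wild type.

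None of the other tested genes around Kat6b passed. Within 1 Mb of Kat6b, 26 genes are in the files and 20 were tested. Of the 18 besides Kat6b and Dupd1, 9 had a log2 fold change above 0 and 9 below, with a median of -0.02 and a range of -0.38 to 0.50, and 0 were called. Adk, the adenosine kinase gene that lies before Kat6b, averaged 60.5 ± 12.3 CPM in Tg(Kat6b) and 55.4 ± 12.9 CPM in wild type (SD, n = 4 each). Samd8, the next tested gene beyond Dupd1, averaged 113.5 ± 5.70 CPM in Tg(Kat6b) and 112.8 ± 7.14 CPM in wild type. An unadjusted p under 0.05 was reached by 2 of the 18. Vcl, which encodes the adhesion protein vinculin, was at -0.38 (SE 0.135, adjusted p = 0.724), and Chchd1, which encodes a protein of the mitochondrial ribosome, at 0.38 (SE 0.164, adjusted p = 0.743).

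**Figure D2:**
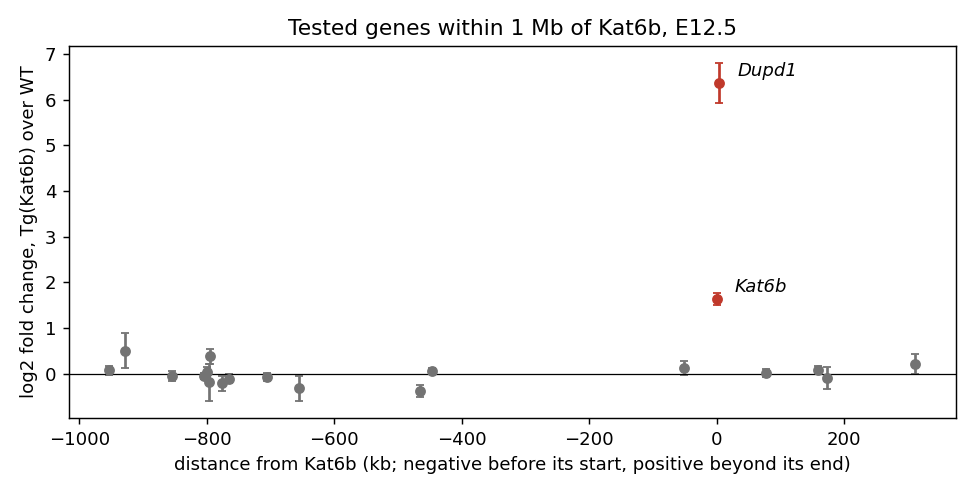
Log2 fold change, Tg(Kat6b) over wild type, at E12.5 of the 20 tested genes within 1 Mb of Kat6b, against their distance from Kat6b in kilobases, where bars are 1 SE. Dupd1 at 6.37 and Kat6b at 1.63 stand above the other 18 genes, which lie between -0.38 and 0.50.

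No partner of Kat6b in its complexes passed the test. Of 14 genes of the MYST family and the BRPF complex, 1 was called, Kat6b. The other 13 had log2 fold changes between -0.39 and 0.20. Per length, Kat6b averaged 73.7 RPKM in Tg(Kat6b) and 23.9 RPKM in wild type. Kat6a, its closest relative, averaged 35.1 RPKM in Tg(Kat6b) and 33.2 RPKM in wild type, so that the order of these paralogs by level differed between the genotypes. In CPM, Kat6a stood at 353, 296, 319 and 314 in the Tg(Kat6b) libraries, against 303, 299.9, 367 and 241 in the wild-type libraries. The groups overlapped, and the log2 fold change was 0.08 (SE 0.129, adjusted p = 0.932), which turned to -0.01 without wild-type replicate 4. Kat8, which acetylates histone H4, was the 1 other member at an unadjusted p under 0.05, at 0.20 (SE 0.0897, adjusted p = 0.743). Brpf1, the main scaffold of the Kat6 complexes, was at -0.15 (SE 0.0851), with 78.9, 64.7, 72.2 and 66.3 CPM in Tg(Kat6b), against 81.0, 81.6, 80.1 and 71.0 CPM in wild type. Of the remaining subunits, Ing5 was at -0.02, Meaf6 at 0.04, Brd1 at -0.02 and Brpf3 at -0.11.

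Both called genes were higher in Tg(Kat6b) cortex at E15.5 as well, where they were again the 2 genes called (0.0129%) and 346 genes (2.22%) had an unadjusted p under 0.05. Kat6b averaged 654 ± 81.9 CPM in Tg(Kat6b) cortex and 181 ± 32.4 CPM in wild-type cortex (SD, n = 4 each). Its effect did not differ detectably between the ages (edgeR interaction, adjusted p = 1). Dupd1 averaged 4.04 ± 0.80 CPM in Tg(Kat6b) cortex and was at 0 in all 4 wild-type libraries of that age, and its effect did not differ detectably either (adjusted p = 1). No gene passed the test of the difference between ages, and 628 genes (4.04%) had an unadjusted p under 0.05 in it.

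The first principal component of the 8 libraries held 47.7% of the variance and did not separate the genotypes. On it the Tg(Kat6b) libraries lay at -41.7, 23.0, 9.24 and 19.98 and the wild-type libraries at -38.5, -18.7, -9.86 and 56.6. Tg(Kat6b) replicate 1 and wild-type replicate 4 were each at the far end from their own group, and limma gave them the lowest quality weights, 0.272 and 0.152. Markers of other tissues and brain regions differed between the libraries. Wild-type replicate 4 held 7494 CPM of the embryonic globin Hbb-y, against 1868 to 2013 CPM in the other wild-type libraries and 1122 to 3323 CPM in the transgenic ones. It also held 802 CPM of the collagen gene Col3a1, a marker of the mesenchyme around the brain. Tcf7l2, which is high in the thalamus, ranged between 36.3 and 206 CPM in Tg(Kat6b) and between 59.2 and 481 CPM in wild type. Emx1, which marks the dorsal part, stood at 30.6 to 71.3 CPM in Tg(Kat6b) and 28.0 to 74.1 CPM in wild type, and Gad2, an enzyme of ventral interneurons, at 103 to 213 CPM in Tg(Kat6b) and 69.1 to 182 CPM in wild type. All 8 libraries expressed the Y-linked gene Ddx3y (1461 to 3907 counts) and had 1 to 21 counts of Xist, so sex did not differ between the groups. Total counts per library were 22123762 to 39694868 in Tg(Kat6b) and 15760378 to 49699656 in wild type, and the median gene had a 95% interval of its fold change that reached 1.24-fold either way.

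**Figure D3:**
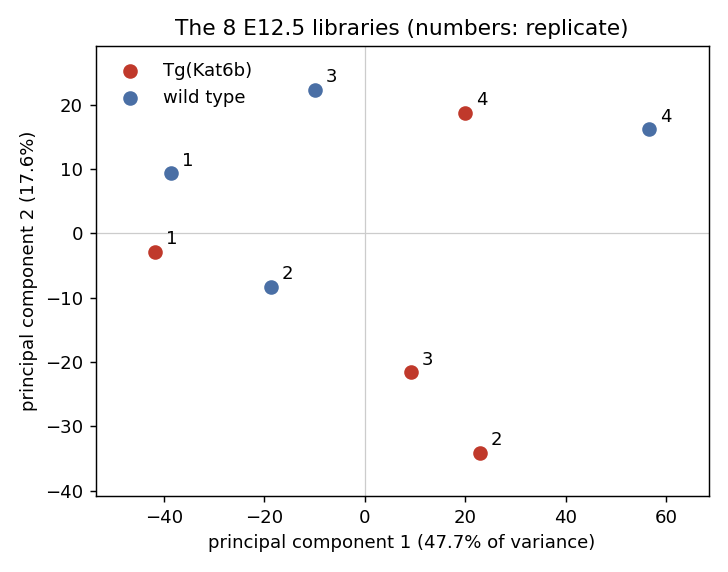
The 8 libraries on the first and second principal components of their log2 CPM, with the share of variance on each axis and the replicate number beside each point. Along the first component Tg(Kat6b) libraries span -41.7 to 23.0 and wild-type libraries -38.5 to 56.6, so the genotypes overlap.

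The count of called genes rested on these 2 libraries. Without wild-type replicate 4 the test called 2 genes and 2137 had an unadjusted p under 0.05, and without Tg(Kat6b) replicate 1 it called 2 genes and 2208 had an unadjusted p under 0.05. Without both it called 2143 of 15404 genes tested, 994 higher and 1149 lower in Tg(Kat6b) tissue. The median log2 fold change over all genes was then -0.01. That pair was chosen because its quality weights had been the lowest in an earlier analysis of these data, and leaving it out also takes away the overlap of the genotypes on the first component. Of the 2141 genes besides Kat6b and Dupd1 that were then called, 56.1% had the same sign at E15.5, against 52.6% of all genes. With limma's quality weights and all 8 libraries 810 genes were called, 422 higher and 388 lower. The gene lists that follow are given for all 8 libraries and, where their direction or their calls changed, without this pair. Since the pair was picked from these data, calls without it describe that setting and give no independent support. Calls within a list are to be read beside the 2143 of 15404 over all genes.

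None of the genes next in order of p passed. The 10 higher genes with a mean of at least 1 CPM had log2 fold changes of 0.32 to 1.09, and the 10 lower ones of -1.37 to -0.41, with adjusted p values of 0.566 to 0.724 (edgeR). In 8 of the 10 higher and 8 of the 10 lower genes the groups did not overlap, while over all genes 1.62% had every Tg(Kat6b) library above and 1.2% every Tg(Kat6b) library below wild type. These 20 genes were picked for their p, so those shares were fixed in part by the choice. First among the higher was AW209491, at 19.4, 24.6, 23.0 and 21.8 CPM in Tg(Kat6b), against 18.2, 16.4, 13.9 and 15.4 CPM in wild type. All 4 transgenic libraries stood above wild type, by 0.48 on the log2 scale (SE 0.0978, adjusted p = 0.566). Fut10, of the fucosyltransferase family, stood at 19.4, 20.4, 29.0 and 27.7 CPM in Tg(Kat6b), against 11.8, 14.6, 15.6 and 20.1 CPM in wild type. The groups overlapped by the lowest transgenic and the highest wild-type library, and the log2 fold change was 0.63 (SE 0.152). At E15.5 Fut10 was at 13.8 CPM or more in Tg(Kat6b) and at 8.38 CPM or less in wild type, with no overlap, at 0.89 on the log2 scale (SE 0.164, adjusted p = 0.242). Cck, the neuropeptide cholecystokinin, was at 0.87 (SE 0.220), the cargo receptor gene Tmed2 at 0.54 (SE 0.123), Frat1, which binds the kinase that marks beta-catenin for breakdown, at 0.50 (SE 0.121), and Taf7, a subunit of the general transcription factor TFIID, at 0.34 (SE 0.0851). The remaining higher genes were C330018D20Rik, Rpl34-ps2, Lyrm2 and Gm9892, and Rpl34-ps2 is named as a ribosomal pseudogene whose reads may be shared with its parent gene.

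First among the lower was Gcn1l1, which encodes the ribosome-bound activator of the amino acid stress kinase. It stood at 139, 117, 117 and 132 CPM in Tg(Kat6b), against 192, 188, 169 and 149 CPM in wild type. Every transgenic library lay below every wild-type one, and the log2 fold change was -0.47 (SE 0.0976, adjusted p = 0.574). Gcn1l1 lies on chromosome 5 from 115565117 to 115622654, directly beside the ribosomal protein gene Rplp0 (115559467 to 115563729), the member of the ribosomal list with the smallest p. Rplp0 stood at 408, 484, 579.5 and 404 CPM in Tg(Kat6b), against 176, 199, 354 and 299.8 CPM in wild type. It went the other way from its neighbour, with all 4 transgenic libraries above wild type, by 0.86 on the log2 scale (SE 0.253, adjusted p = 0.724). Sned1, which encodes a glycoprotein of the extracellular matrix, was at 2.42, 2.29, 2.12 and 3.17 CPM in Tg(Kat6b), against 3.72, 3.97, 7.40 and 4.99 CPM in wild type. Its groups did not overlap, at -1.02 (SE 0.240), and at E15.5 it was at -0.98 (SE 0.339). Sned1 and Fut10 were the members of the 20 with the same sign and an unadjusted p under 0.05 at E15.5. Of the 10 higher genes 4 kept their sign at that age, and of the 10 lower genes 5. Also lower were the potassium channel gene Kcna5 at -1.13 (SE 0.266), the basement membrane gene Nid2 at -0.61 (SE 0.159) and Col2a1, a collagen chain best known from cartilage, at -0.52 (SE 0.139). Nid2 and Col2a1 were at -0.39 each without wild-type replicate 4 and Tg(Kat6b) replicate 1. The others were Dock6, Gm13123, Man2b1, Igdcc4 and Kif19a, and Kif19a had 6.81 CPM in wild-type replicate 4, against 1.05 to 1.46 CPM in Tg(Kat6b) and 1.63 to 2.91 CPM in the other wild-type libraries.

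**Figure D4:**
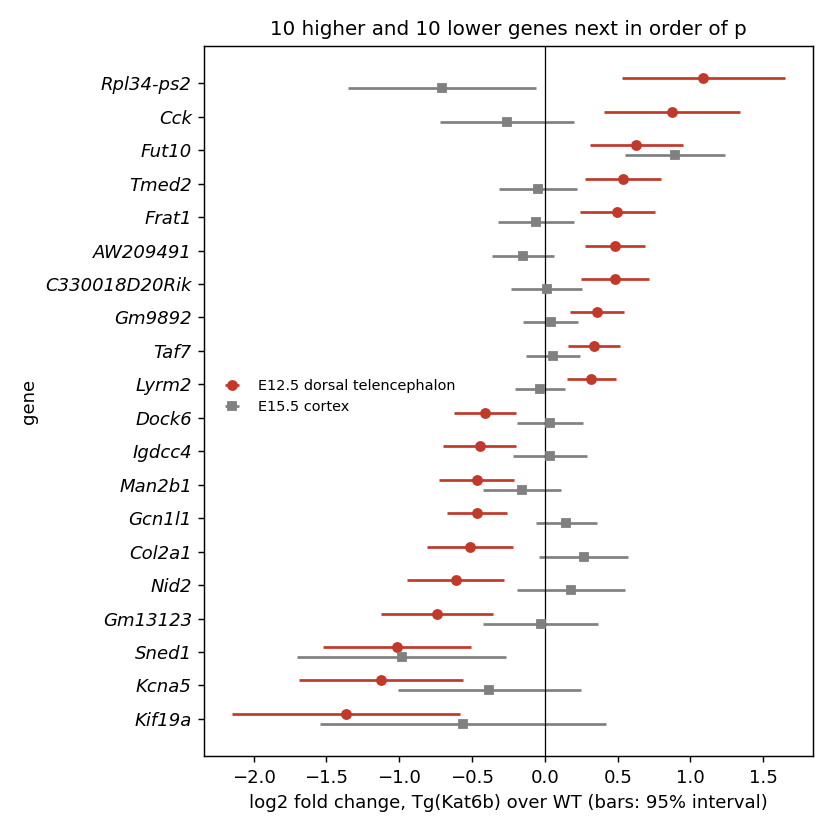
Log2 fold change, Tg(Kat6b) over wild type, with 95% intervals, of the 10 higher and 10 lower genes next in order of p at E12.5 (red) and of the same genes at E15.5 (grey). Chosen at E12.5, they lie between -1.37 and 1.09 at that age. At E15.5 the interval of Fut10 lies above 0 and that of Sned1 below 0, as at E12.5, while that of Rpl34-ps2 lies below 0, on the other side.

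With all 8 libraries, progenitor and neuron genes were close to balanced between the genotypes. Among all genes tested 47.4% lay above 0, with a median log2 fold change of -0.01. No list member besides Kat6b and Dupd1 passed, and the smallest adjusted p among the others was 0.566, that of Tlr1 (edgeR). Of 23 apical progenitor genes 11 lay above 0 (median -0.02), with 3 higher and 1 lower at an unadjusted p under 0.05, where 3.63% of all genes were higher and 3.05% lower. Fabp7, the lipid-binding protein of radial glia, stood at 475, 511, 472 and 467 CPM in Tg(Kat6b), against 430, 424, 352 and 380.2 CPM in wild type. All 4 transgenic libraries were above wild type, at 0.28 (SE 0.0831, adjusted p = 0.724), and at E15.5 the value was -0.16. Nr2e1, the orphan receptor of neural stem cells, was at 0.25 (SE 0.0896) and at 0.40 (SE 0.0910) at E15.5. Pdpn was at 0.23 (SE 0.0847), and Sox9, a regulator of neural stem cells, was the lower member at -0.18 (SE 0.0816). Pax6, the regulator of dorsal progenitors, was at 0.19 (SE 0.120) and Sox2 at 0.15 (SE 0.0820). Of 18 intermediate progenitor genes 8 lay above 0 (median -0.03) and 0 reached an unadjusted p under 0.05, and the proneural gene Neurog2 was at -0.22 (SE 0.131). Deep-layer (9 of 18 above 0) and upper-layer genes (9 of 18) were split evenly, and pan-neuronal genes were 13 of 24 above 0 with a median of 0.01. Without wild-type replicate 4 and Tg(Kat6b) replicate 1, where 2143 of 15404 genes were called, these lists other than intermediate progenitors were less even. Apical progenitor genes were then 16 of 23 above 0 (median 0.09), with 1 called. Deep-layer genes were 4 of 18 above 0 with 1 called, upper-layer genes 6 of 18 with 3 called, and pan-neuronal genes 2 of 24, with a median of -0.29 and 7 called. Intermediate progenitor genes were 8 of 18 above 0 with 0 called.

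Among genes of signalling and growth Dupd1 was the only member called with all 8 libraries. Of 25 Notch pathway genes 5 lay above 0 (median -0.07), and Notch2 (-0.34, SE 0.123), the ligand gene Jag1 (-0.24, SE 0.107) and the endothelial ligand gene Dll4 (-0.39, SE 0.183) had an unadjusted p under 0.05. At E15.5, 19 of the 25 lay above 0. Of 25 Wnt ligands and receptors 9 lay above 0, with the cortical ligand gene Wnt7b at 0.31 (SE 0.108) and the hem and thalamic receptor gene Fzd10 at -0.80 (SE 0.327). Cell cycle genes were 13 of 30 above 0 (median -0.02), with Ccne2 at 0.30 (SE 0.137). Of 19 CDK inhibitors and p53 targets 15 lay above 0 (median 0.06), with Ccng1 at 0.31 (SE 0.127) as the member at an unadjusted p under 0.05. Of 23 dual specificity phosphatases 14 lay above 0 and 1 was called, Dupd1. Dusp4 was at 0.30 (SE 0.115) and Dusp1 at 0.25 (SE 0.0948), both of which turn off MAP kinases. Histone and chromatin enzymes were 16 of 41 above 0 (median -0.03), with the acetyltransferase gene Hat1 at 0.23 (SE 0.104) and the maintenance DNA methyltransferase gene Dnmt1 at -0.18 (SE 0.0772). Without wild-type replicate 4 and Tg(Kat6b) replicate 1, more of these genes were called, as were more of all genes (2143 of 15404). Histone and chromatin enzymes were then 10 of 41 above 0 (median -0.15) with 8 called, and cell cycle genes 23 of 30 above 0 (median 0.11) with 3 called. Wnt genes were 14 of 25 above 0 (median 0.04) with 2 called, and Notch genes 8 of 25 (median -0.14) with 1 called. The CDK inhibitors and p53 targets were 17 of 19 above 0 (median 0.14) with 2 called. The dual specificity phosphatases were 18 of 23 above 0 (median 0.23) with 3 called, Dupd1 among them.

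Of the 11 genes taken from the comparison of libraries labelled Kat6b-/- with wild type, 9 lay above 0 in Tg(Kat6b) tissue, with a median of 0.13, and 0 were called. These genes had been picked for results on the other libraries of the study, and without wild-type replicate 4 and Tg(Kat6b) replicate 1 again 9 lay above 0 (median 0.27), with 1 called. In the libraries labelled Kat6b-/- at E12.5 the count of Kat6b itself was at -0.16 over wild type (SE 0.139, adjusted p = 0.918 by edgeR), so it does not bear out that label. The part of the gene that the allele removes is not given in the sources used here. Nr2e1 was at 0.25 and Tshz1, a zinc finger regulator, at 0.21 (SE 0.0976). Stac, which encodes an adaptor protein and was the 1 gene of 16118 (0.0062%) called in that comparison at E12.5, stood at 2.55, 3.03, 3.19 and 2.87 CPM in Tg(Kat6b), against 2.48, 2.00, 1.92 and 2.78 CPM in wild type. The groups overlapped, and the log2 fold change was 0.34 (SE 0.199, adjusted p = 0.790). The chemokine gene Cxcl14 stood at 3.44, 3.18, 3.09 and 29.1 CPM in Tg(Kat6b), against 1.73, 2.06, 5.45 and 5.835 CPM in wild type. Its log2 fold change of 1.32 (SE 0.636) rested on Tg(Kat6b) replicate 4 and was -0.25 without it. In the libraries labelled Kat6b-/- at E12.5 Cxcl14 was at 1.27 over wild type, Nr2e1 at -0.29 and Tshz1 at -0.37. Directions in that comparison were thus mixed. Lhx2, a selector of cortical identity, was at 0.02 (SE 0.186). SOX family genes were 7 of 18 above 0 (median -0.06) and 15 of 18 at E15.5, and without the pair 9 of 17 at E12.5 (median 0.05).

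Ribosomal protein genes lay above 0 in 55 of 69 cases, with a median log2 fold change of 0.22, and 0 were called. At an unadjusted p under 0.05 there were 5 higher and 0 lower. Summed over the list they took 6496, 10532, 8681 and 8967 CPM in the Tg(Kat6b) libraries, against 6304, 6860, 6193 and 9835 CPM in the wild-type libraries. The sums overlapped, since Tg(Kat6b) replicate 1 was among the low libraries and wild-type replicate 4 among the high ones. Without this pair 61 of 69 lay above 0, with a median of 0.49, and 37 were called. At E15.5 the median was -0.03. Gene length moved with this list. Across genes, the correlation of a library's deviation from the mean of the 8 libraries with gene length was 0.289, -0.347, -0.222 and -0.219 in the Tg(Kat6b) libraries, against 0.201, 0.127, 0.478 and -0.261 in the wild-type libraries (Spearman; all genes share the libraries' depth and composition). The 3889 shortest genes had a median log2 fold change of 0.07 and the 3889 longest one of -0.05. The part of gene length in the ribosomal values was not tested.

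Markers of cells from outside the neural wall mostly lay below 0. Of 18 endothelial and pericyte markers 1 lay above 0 (median -0.26), with 6 lower at an unadjusted p under 0.05 and 0 called. Their summed level was 269, 292, 298 and 297 CPM in Tg(Kat6b), against 302, 304, 366 and 425 CPM in wild type. The sums did not overlap. Cspg4, a pericyte proteoglycan, stood at 4.51, 2.20, 2.81 and 3.17 CPM in Tg(Kat6b), against 5.58, 5.35, 5.34 and 5.40 CPM in wild type. Every transgenic library was below wild type, at -0.77 (SE 0.240, adjusted p = 0.724). Flt1, a vascular growth factor receptor, was at -0.29 (SE 0.112) and Pdgfrb at -0.54 (SE 0.203). Without wild-type replicate 4 and Tg(Kat6b) replicate 1, 5 of the 18 lay above 0 and the median was -0.13. In that setting 2143 of 15404 genes were called, 2 of this list among them. Cspg4 was then at -0.996, Flt1 at -0.33 and Pdgfrb at -0.24, and neither Flt1 nor Pdgfrb was called. At E15.5, 9 of the 18 markers lay above 0, with a median of 0.002. In whole tissue, fewer cells of a type and less RNA per cell cannot be told apart.

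Of 20 markers of meninges and mesenchyme 3 lay above 0 (median -0.45), and their sums were 1120 to 2696 CPM in Tg(Kat6b) and 1336 to 3842 CPM in wild type. Erythroid markers lay above 0 in 3 of 13 cases (median -0.58), with sums of 1562 to 4657 CPM in Tg(Kat6b) and 2490 to 9860 CPM in wild type. Both directions rested on wild-type replicate 4. Without it 11 of 20 meningeal markers (median 0.11) and 9 of 13 erythroid markers (median 0.09) lay above 0, while without Tg(Kat6b) replicate 1 the meningeal median was -0.33 and the erythroid median -0.39. Without both libraries, 13 of 19 meningeal markers (median 0.26) and 13 of 13 erythroid markers (median 0.27) lay above 0, with 0 meningeal and 1 erythroid marker called. Aldh1a2, the meningeal enzyme of retinoic acid synthesis, was at 0.865, 1.27, 1.18 and 1.82 CPM in Tg(Kat6b), against 1.30, 1.65, 3.98 and 27.4 CPM in wild type. Its log2 fold change was -2.77 with wild-type replicate 4 and -0.89 without it. Microglia and macrophage markers were 4 of 16 above 0 (median -0.30), among them Csf1r at -0.41 (SE 0.147) and Cx3cr1 at -0.33 (SE 0.125). Without the pair 8 of 16 lay above 0 and 1 was called. Of 15 innate immune receptors 4 lay above 0, and 7 without the pair, with 1 called. Tlr1 (chromosome 5, 64924680 to 64933600) stood at 0.331, 0.478, 0.347 and 0.217 CPM in Tg(Kat6b), against 1.18, 1.97, 1.38 and 1.96 CPM in wild type. All transgenic libraries were below wild type, at -2.22 (SE 0.448, adjusted p = 0.566), and at E15.5 the value was -0.10 (SE 0.422). Glial lineage genes were 3 of 15 above 0 (median -0.30), and 6 of 15 without the pair (median -0.27), with 2 called.

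Genes of neighbouring brain regions varied widely among libraries of both genotypes. Of 23 caudal brain transcription factors 13 were tested, 2 lay above 0 (median -0.88) and 3 were lower at an unadjusted p under 0.05. Their summed level was 322, 58.6, 188 and 268 CPM in Tg(Kat6b), against 722, 223, 393 and 125 CPM in wild type. The groups overlapped, and wild-type replicate 1 was the highest library. Gata2, a regulator of midbrain and thalamic inhibitory neurons, stood at 4.51, 1.02, 3.02 and 3.30 CPM in Tg(Kat6b), against 14.3, 2.71, 8.08 and 9.58 CPM in wild type, at -1.54 (SE 0.436, adjusted p = 0.724). Without wild-type replicate 1 the list's median was -0.46. Without the pair it was -1.47, with 13 of 13 below 0 and 3 called. Of 23 ventral telencephalon and interneuron genes 19 lay above 0 (median 0.15), with 0 at an unadjusted p under 0.05. Lhx6, a regulator of interneurons, was at 0.38 (SE 0.190). Without the pair 10 of 23 lay above 0, with a median of -0.07. Hem and choroid plexus genes were 7 of 20 above 0 (median -0.16), and 13 of 19 without the pair (median 0.28), with 2 called. Cajal-Retzius cell genes were 6 of 14 above 0 (median -0.07), with Ebf3 at -0.67 (SE 0.297). Without the pair they were 3 of 14 above 0 (median -0.33), with 2 called. Area patterning genes were 13 of 23 above 0 (median 0.02), with Epha7 at -0.26 (SE 0.0931) and Nr2f1, a regulator of area identity, at 0.16 (SE 0.0755). Without the pair 17 of 23 lay above 0, with 1 called.

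**Figure D5:**
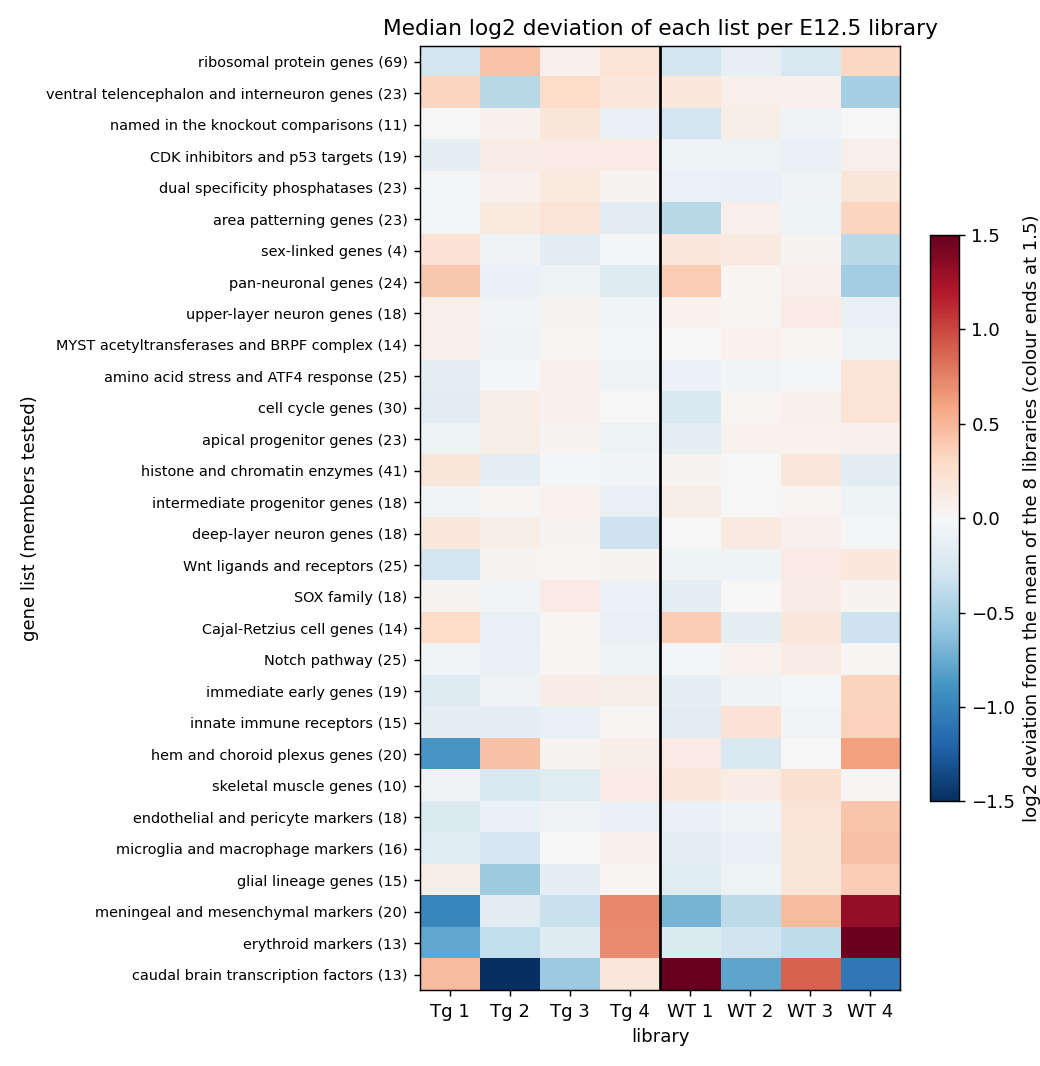
Median log2 deviation from the mean of the 8 libraries (colour) of each of the 30 gene lists (rows, with the number of members tested) in each E12.5 library (columns, Tg(Kat6b) left of the line and wild type right). The meningeal and erythroid rows are high in wild-type replicate 4, at 1.32 and 1.47, and the ribosomal row is low in Tg(Kat6b) replicate 1, at -0.28, and high in Tg(Kat6b) replicate 2, at 0.43.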

How the data were processed

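RNA was sequenced from 8 libraries of E12.5 dorsal telencephalon, 4 of Tg(Kat6b) and 4 of wild-type FVBxBALB/c embryos. Per the labels, RNeasy columns with a DNase step gave total RNA, the TruSeq RNA kit v2 gave the libraries and a NextSeq500 read 66 bp from both ends. The deposited files give whole-number counts for each gene with no scaling, made with bcl2fastq and featureCounts on mm10 per the submitters' processing notes, beside a gene length from the same deposited files. The aligner, the annotation, the strand and multi-mapping settings and every version were not given in the sources used here.

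Of 27179 rows per file, 848 carry no gene ID (0.305% to 0.384% of counts) and were left out. Genes were kept by filterByExpr (minimum count 10, minimum total 15), which left 15556. Counts were scaled by TMM, and edgeR 4.0.16 (R 4.3.3) fitted a robust quasi-likelihood model with 1 mean for each of the 4 groups of the 16 FVBxBALB/c libraries (12 residual degrees of freedom, biological coefficient of variation 0.188). P-values are 2-sided and adjusted by Benjamini-Hochberg over all genes. The SE was worked back from the F test as the size of the log2 fold change over the root of F. RPKM divides CPM by the deposited length. Positions and promoters come from RefSeq on GRCm38.p6, in which 25275 of 26331 Entrez IDs matched.

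The text names genes by this rule: the called genes, the 10 higher and 10 lower genes next in p, up to 3 genes of each of 30 lists by p, the tested genes within 1 Mb of Kat6b, and the genes of the MYST and Kat6b-/- lists. The remaining genes, Gm8221, Sptlc3, Dusp13, Myod1, Myog and the markers of dissection, were chosen after their values were seen. The members, lists and rules were chosen with earlier results of these data known. Alternatives were DESeq2 1.42.0, limma 3.58.1, other scalings, filters, samples and covariates. Intervals of counts and floors cover counting error only, since reads that carry no molecular identifier may copy 1 molecule.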

Additional observations from a re-analysis of the deposited data

Results flagged for a closer look

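In 250 groups of 4 libraries (each named gene and each list sum, by genotype), 15 had a library that stood apart by Dixon's criterion, where chance gives about 1 in 20. Wild-type replicate 4 stood apart in 5 of them. It had 7494 CPM of Hbb-y (others 1868 to 2013), 9860 CPM summed over the erythroid markers (others 2490 to 2741), 27.4 CPM of Aldh1a2 (others 1.30 to 3.98), 899 CPM summed over the ventral telencephalon genes (others 1467 to 1480) and 71.0 CPM of Brpf1 (others 80.1 to 81.6). Tg(Kat6b) replicate 1 stood apart in 4, with 683 CPM summed over the Cajal-Retzius genes (others 487 to 513), 7534 CPM over the histone and chromatin enzymes (others 6316 to 6471), 240.4 CPM of Col4a1 (others 283 to 291) and 33.0 CPM of Dock6 (others 28.7 to 29.4). Tg(Kat6b) replicate 4 had 29.1 CPM of Cxcl14 (others 3.09 to 3.44), 65.2 CPM of Vcl (others 40.1 to 43.0) and 250.1 CPM of Pou3f3 (others 271 to 274). Tg(Kat6b) replicate 3 had 125 CPM of Kat7 (others 105 to 108) and 167 CPM of Dusp4 (others 123 to 130), and Tg(Kat6b) replicate 2 had 16.6 CPM of Barhl2 (others 22.1 to 22.9).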

How the results depend on the processing

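Kat6b and Dupd1 were called under each of the 21 alternatives run, with log2 fold changes of 1.58 to 1.70 and 6.05 to 6.74. DESeq2 called 6 genes, adding AW209491 (higher) and Gcn1l1, Gm8221 and Tlr1 (lower). Limma's quality weights gave 810 and leaving out wild-type replicate 4 with Tg(Kat6b) replicate 1 gave 2143, while leaving out any single library gave 2 to 2. For the difference between ages these 3 settings gave 1, 1 and 250 genes, and every other setting gave 0. The replicate block called 3 genes, adding Gata2. Whether the numbers pair the samples is not known, since litters are not given. Deviations of same-numbered libraries correlated at 0.604, 0.0501, -0.116 and 0.384 for numbers 1 to 4. Those of differently numbered libraries correlated at -0.728 to 0.405, and neither range decides the question. A sex covariate called 3, adding Tlr1. Directions turned for Hbb-y (0.0576 with quality weights, 0.268 without the pair, -1.07 to 0.0700 leaving out single libraries), Kat7 (0.00222 with quality weights), Kat6a (-0.0637 without the pair, -0.0121 to 0.190), Lhx2 (-0.15 to 0.19) and Cxcl14 (-0.25 to 1.61). Without the pair Lhx2 was at 0.30 and Cxcl14 at 1.86, both above the ranges given for leaving out single libraries. The cause of the turns was not tested. In the main fit the interval of the median gene spans 0.31 on the log2 scale either way, so smaller differences were mostly not detectable there. That interval is not adjusted for the number of genes, whereas calls were, so 0.31 is not the size above which genes were called. In the main edgeR test AW209491 at 0.48 (adjusted p = 0.566), Gcn1l1 at -0.47 (adjusted p = 0.574) and Tlr1 at -2.22 (adjusted p = 0.566) were not called.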

Other observations

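A pair of genes was at 0 in all 4 libraries of 1 genotype and at 3 or more counts in all 4 of the other. The pseudogene Gm8221 (chromosome 15, 77618968 to 77627398) had 0 counts in every Tg(Kat6b) library, against 9, 41, 88 and 32 counts in the wild-type libraries, which is at least 48.8-fold lower with a floor of 3 counts over the group (adjusted p = 0.724 by edgeR). At E15.5 it had 0, 23, 4 and 3 counts in Tg(Kat6b), against 0, 0, 19 and 0 in wild type, and at most 1 count in any C57BL/6 library. Sptlc3 (chromosome 2, 139493913 to 139637061), a subunit gene of the enzyme that starts sphingolipid synthesis, had 3, 5, 4 and 4 counts in Tg(Kat6b), against 0 in all 4 wild-type libraries, at least 6.20-fold higher by the same floor. It was too low to be tested.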
